A study of Mus musculus with 6 samples.

Results

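Ubiquitin and ubiquitin-like E2 conjugating enzymes were followed in activated mouse CD8+ T cells by their messenger RNA. They were taken as the genes whose symbol starts with Ube2, without Ube2m and Ube2f, the E2 enzymes of the ubiquitin-like protein NEDD8, and with a mean of at least 10 normalized counts over the 6 libraries. The rule kept 32 of the 18288 genes in the deposited table. Of these, 29 encode an E2 enzyme or an E2 variant protein, and the other 3 do not: Ube2d-ps and Ube2n-ps1 are pseudogenes, and Ube2cbp encodes a protein that binds UBE2C and is itself classed as a ubiquitin ligase. The minimum mean left out only Ube2d2b, with a mean of 3.28, and the lowest member was Ube2e2, with a mean of 44.0. A normalized count is the number of reads of a gene divided by the size factor of its library.

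The CD8+ T cells were activated in culture and taken at day 2. There were 3 Nae1T-KO and 3 Nae1WT libraries, each called a biological replicate. NAE1 is the regulatory partner of UBA3 in the E1 enzyme that activates NEDD8. The label Nae1T-KO is not explained further in the sources used here, which do not give the allele, the driver of the deletion, the strain, or the age and number of mice. The p-values therefore cover the spread among these libraries, which may be partly technical. Nae1 had 390.3, 338 and 367 normalized counts across Nae1T-KO libraries, against 1601, 1806 and 1882 in Nae1WT, so each library went with its label.

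Ubiquitin reaches its targets through a cascade. An E1 enzyme activates the modifier, an E2 enzyme carries it on a catalytic cysteine, and an E3 ligase brings the loaded E2 to the substrate. The E2 enzyme often sets which kind of chain is built, and cullin-RING ligases, which NEDD8 activates, are among the largest users of E2 enzymes. In T cells these enzymes serve antigen receptor and NF-kB signalling, the cell cycle and protein quality control.

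The 3 Nae1T-KO and 3 Nae1WT libraries held 15628252 to 25444653 recovered reads. Of 7 genes chosen as CD8 T cell markers, 6 were in the table, and they summed to 20059 to 21950.4 normalized counts in Nae1T-KO and 21565 to 23758 in Nae1WT. Markers of other cells were low but not even. The 8 erythroid markers in the table summed to 367, 2052 and 194 in Nae1T-KO and to 142, 317 and 645 in Nae1WT. The 8 B cell markers summed to 206 to 549.9 in Nae1T-KO and 227 to 357 in Nae1WT, and the 6 myeloid and dendritic markers to 66.0 to 115 in Nae1T-KO and 19.9 to 33.5 in Nae1WT. The 7 CD4 T cell markers summed to 557 to 931 in Nae1T-KO and 341 to 468 in Nae1WT, and 0 of them were called. Il13, a cytokine gene, had the most counts of these in each Nae1T-KO library, 669, 352 and 245, against 83.5, 160 and 203 in Nae1WT. Cd4 itself had 20.1, 118 and 72.7 in Nae1T-KO, against 119, 20.9 and 42.6 in Nae1WT, so it did not follow the sum. The 2 NK and gamma-delta T cell markers summed to 9.69 to 26.3 in Nae1T-KO and 16.7 to 25.8 in Nae1WT. Of the tested markers 1 of 6 for CD8 T cells was lower and 1 of 2 myeloid and dendritic ones, Xcr1, was higher in Nae1T-KO. Xcr1 was scarce, at 10.1, 17.6 and 15.1 across Nae1T-KO libraries and 4.91, 2.09 and 3.81 across Nae1WT libraries. Testing needed at least 10 in at least 3 libraries, which Xcr1 met only through Nae1T-KO. Its call therefore concerns a gene kept by the group where it was high, at values near the filter. The part of such cells in the results was not tested. Xist and Y-linked genes showed that Nae1T-KO replicates 1 and 2 and Nae1WT replicate 3 were female and the other 3 libraries male.

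The 4 members that passed the test as higher in Nae1T-KO whichever library was left out were Ube2c, Ube2s, Ube2r2 and Ube2q2. Their promoters are shown to let the sequence be read beside these increases. Each window runs from 250 bases before to 50 bases after a RefSeq transcript start in GRCm38.p6, on the strand of the gene. The windows are chr2:164769679-164769978 (+) for Ube2c, chr7:4812291-4812590 (-) for Ube2s, chr4:41135771-41136070 (+) for Ube2r2 and chr9:55149119-55149418 (+) for Ube2q2. Capitals mark motif matches on either strand.
Ube2c: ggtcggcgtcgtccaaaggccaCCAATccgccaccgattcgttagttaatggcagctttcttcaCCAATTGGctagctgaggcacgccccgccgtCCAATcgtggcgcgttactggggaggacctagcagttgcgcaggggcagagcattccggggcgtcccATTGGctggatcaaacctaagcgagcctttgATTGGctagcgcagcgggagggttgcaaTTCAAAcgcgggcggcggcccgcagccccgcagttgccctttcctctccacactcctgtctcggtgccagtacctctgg
Ube2s: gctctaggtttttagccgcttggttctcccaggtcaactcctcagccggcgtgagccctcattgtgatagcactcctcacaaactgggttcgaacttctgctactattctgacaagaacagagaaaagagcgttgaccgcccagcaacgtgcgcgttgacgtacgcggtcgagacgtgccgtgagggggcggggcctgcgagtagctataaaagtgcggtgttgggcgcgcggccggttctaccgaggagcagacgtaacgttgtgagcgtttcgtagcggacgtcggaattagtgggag
Ube2r2: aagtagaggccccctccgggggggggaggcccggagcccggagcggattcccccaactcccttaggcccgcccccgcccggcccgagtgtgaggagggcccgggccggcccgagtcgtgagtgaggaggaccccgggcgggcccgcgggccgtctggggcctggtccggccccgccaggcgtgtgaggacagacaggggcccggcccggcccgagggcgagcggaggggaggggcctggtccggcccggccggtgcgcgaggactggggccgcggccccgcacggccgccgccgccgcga
Ube2q2: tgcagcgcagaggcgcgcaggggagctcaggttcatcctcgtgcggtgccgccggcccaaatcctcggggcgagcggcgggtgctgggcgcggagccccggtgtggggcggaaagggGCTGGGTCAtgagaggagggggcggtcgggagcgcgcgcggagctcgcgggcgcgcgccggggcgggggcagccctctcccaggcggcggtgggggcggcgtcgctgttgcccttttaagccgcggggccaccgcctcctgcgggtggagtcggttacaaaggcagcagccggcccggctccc
The motifs searched were the cell cycle homology region TTTGAA, the CCAAT box, the antioxidant response element core TGACNNNGC, the interferon-stimulated response element and the E2F letters TTTGGCGC and TTTCCCGC, with N for any base. The Ube2c window held TTTGAA on the minus strand at bases 222 to 227 and 6 CCAAT boxes, of which those at bases 65 to 69 and 68 to 72 overlap. The Ube2q2 window held the antioxidant core on the minus strand at bases 118 to 126, and a later Ube2q2 start in the table held none of the motifs. The Ube2s and Ube2r2 windows held none of them. Windows were found for 24 of the 32 members. TTTGAA was in a window of 2 of the 24 members and of 20.2% of 27025 genes, CCAAT in 5 members and 41.1% of genes, and the antioxidant core in 5 members and 14.0% of genes. The interferon element was in 0 members and 3.99% of genes, TTTGGCGC in 0 members and 0.585% of genes, and TTTCCCGC in 1 member, Ube2q1, and 1.24% of genes.

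More E2 genes were higher than lower in Nae1T-KO, and most changes were small. Of the 32 members, 7 were higher and 2 lower (limma on log2(normalized count + 1), Benjamini-Hochberg adjusted p under 0.05 over 13819 genes), and 23 did not pass. The 9 were 28.1% of the members, against 12.7% of all genes tested, of which 6.53% were higher and 6.18% lower, so the share of members called was above the background. Ube2c and Ube2e2 were the members called with a change of at least 1.5-fold. The median log2 fold change was 0.11 over the members and -0.01 over all genes tested. Nae1T-KO and Nae1WT libraries did not overlap for 14 members higher and 2 lower in Nae1T-KO, 50% of the members, where 33.7% of all genes did not overlap. In these bulk samples, fewer cells of a type and less RNA per cell cannot be told apart.

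How many members passed varied with the libraries used. The number called, 9 with all 6, was 4 without Nae1T-KO replicate 2, Nae1WT replicate 2 or Nae1WT replicate 3, and 5 without Nae1T-KO replicate 1 or Nae1WT replicate 1. Without Nae1T-KO replicate 3, 8 of the 9 kept their call and 2 other members gained one. That run set only female Nae1T-KO libraries against Nae1WT libraries of both sexes. Ube2c, Ube2s, Ube2r2 and Ube2q2 were the 4 members called whichever library was left out. With sex as a covariate 5 members passed. The share of all genes called in each of these runs is not set beside these counts. They are therefore not read as particular to the members. Females included 1 Nae1WT library and males 1 Nae1T-KO library, so differences within a sex rest on a single library of a group and are given as values, with no test.

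**Figure D1:**
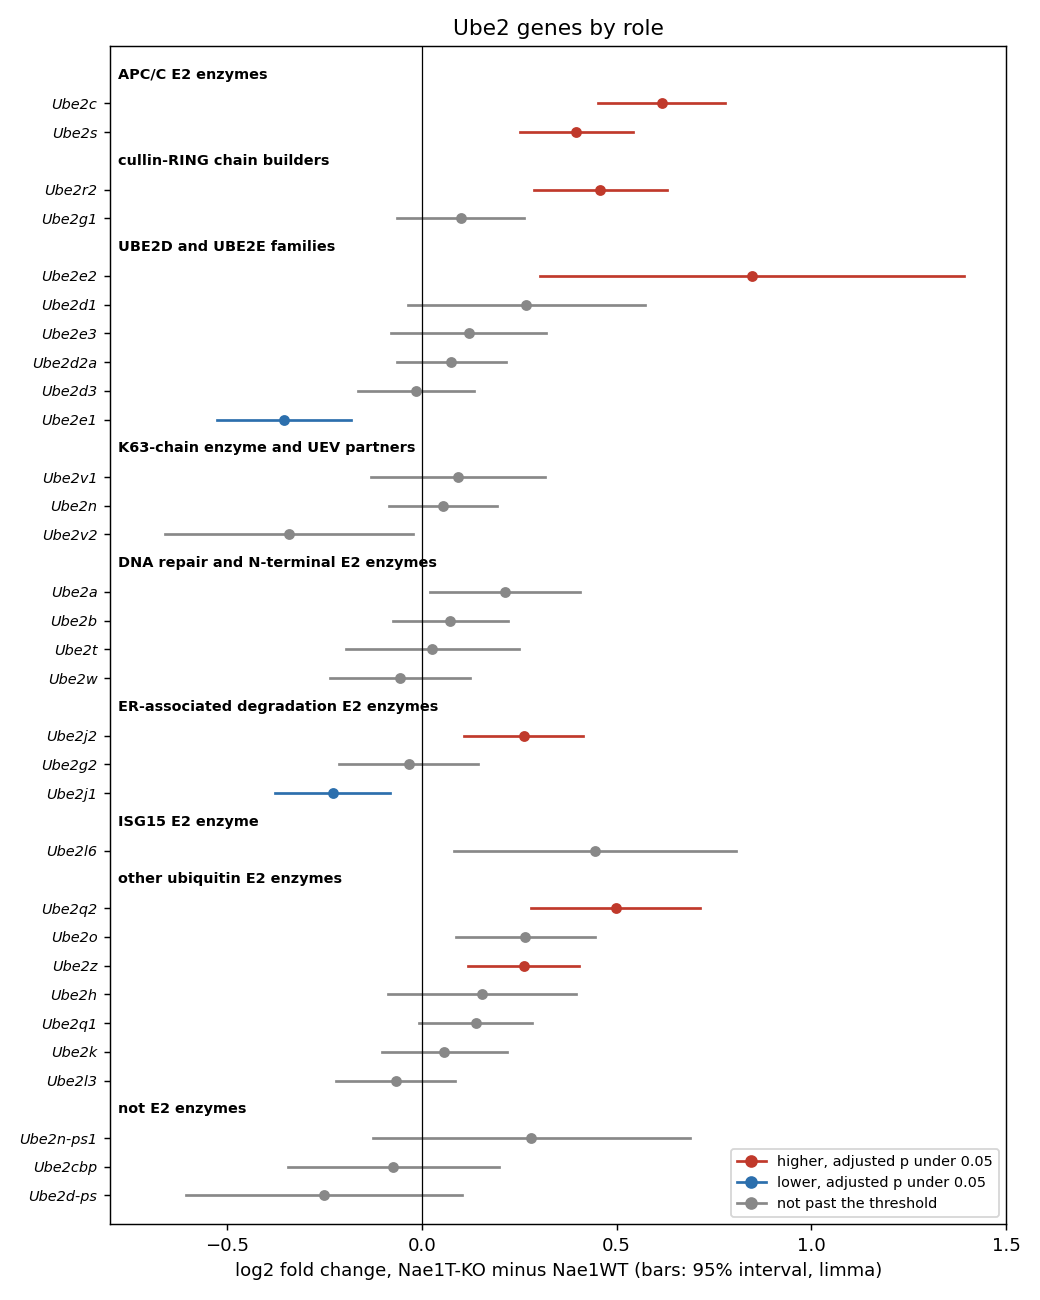
Log2 fold change (Nae1T-KO minus Nae1WT) of 31 of the 32 Ube2 genes, grouped by role, with 95% intervals from limma over 3 libraries a group. Red marks the 7 genes that were higher, blue the 2 that were lower and grey 22 not past the threshold, and Ube2e2 has the widest interval of the called genes.

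The E2 enzymes of the anaphase-promoting complex (APC/C), the ligase that drives exit from mitosis, were both higher. UBE2C starts ubiquitin chains on APC/C substrates. Ube2c had 3005, 2775 and 2662 normalized counts across Nae1T-KO libraries, against 1934, 1841 and 1733 in Nae1WT. The lowest Nae1T-KO library lay well above the highest Nae1WT library. The means were 2814 ± 175 in Nae1T-KO and 1836 ± 101 in Nae1WT (SD, n = 3 each), for a log2 fold change of 0.62 ± 0.07 (SE, limma adjusted p = 0.000920). UBE2S extends those chains through K11 linkages. Ube2s had 4416, 4107 and 4368 in Nae1T-KO, against 3152, 3426 and 3212 in Nae1WT, again without overlap, for a log2 fold change of 0.40 ± 0.07 (SE, limma adjusted p = 0.00452). In GRCm38 Ube2c lies on chromosome 2 from 164769929 to 164772902 and Ube2s on chromosome 7 from 4808014 to 4812340. Exons of Tnnc2 on the other strand cover 22.8% of the annotated exon bases of Ube2c, but Tnnc2 had at most 7.07 normalized counts in any library. Rpl28, a ribosomal protein gene, covers 3.56% of Ube2s and had a log2 fold change of 0.25 (limma, adjusted p = 0.0641). Whether counting used strand is not given in the sources used here.

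Most other APC/C genes did not pass. Of 17 genes for its subunits, coactivators and inhibitor, 1 was higher, 3 were lower and 13 did not pass, with a median log2 fold change of -0.11. The called genes were 23.5% of the 17, beside 12.7% of all genes tested. The coactivator gene Cdc20 was the higher gene at 0.27 (log2), named after its values were seen. The subunit genes Anapc10 at -0.58, Anapc16 at -0.32 and Anapc4 at -0.31 were lower. Of the 6 runs without a library, the call was kept in 6 for Anapc10, 2 for Anapc16 and 4 for Anapc4. Of 20 genes of mitosis 1 was called, 5% of them, the kinase gene Plk1 at 0.34, and their median log2 fold change was 0.04. Of these 20 genes, 6 that were higher and 4 that were lower had an unadjusted p under 0.05 in limma. EdgeR and limma-voom each called 1 and DESeq2 called 2. The matching shares of all genes are not set beside these counts.

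The cullin-RING ligases, which depend on NEDD8, build chains with a small set of E2 enzymes. UBE2R2 is a close relative of CDC34 that extends chains on substrates of these ligases. Ube2r2 had 1167, 1265 and 1158 normalized counts across Nae1T-KO libraries, against 925, 860.3 and 828 in Nae1WT. All 3 Nae1T-KO libraries lay above all 3 Nae1WT libraries, with means of 1196 ± 59.2 in Nae1T-KO and 871 ± 49.3 in Nae1WT (SD, n = 3 each). The log2 fold change was 0.46 ± 0.08 (SE, limma adjusted p = 0.00476), and the gene lies on chromosome 4 from 41136021 to 41193370. UBE2G1 works beside UBE2R enzymes on cullin-RING substrates. Ube2g1 had 1476, 1496 and 1682 in Nae1T-KO, against 1403, 1468 and 1466 in Nae1WT, which nearly touched, and did not pass (log2 fold change 0.10, 95% interval -0.06 to 0.26, limma adjusted p = 0.409). Cdc34 itself, outside the Ube2 symbols, had 0.16 (limma, adjusted p = 0.198). It is among 8 genes with an E2 fold under other symbols, of which 0 were called by limma, edgeR, DESeq2 or limma-voom and 0 had an unadjusted p under 0.05 in limma. Of 12 core genes of cullin-RING ligases 0 were called by limma, edgeR or limma-voom and 1 by DESeq2, with 5 at an unadjusted p under 0.05 in limma. In limma 12.7% of all genes tested were called, so few calls would be expected in lists as short as these. The shares of all genes under the unadjusted threshold or called by the other tools are not set beside these counts. The NEDD8 E2 gene Ube2m had a log2 fold change of 0.25 (limma, adjusted p = 0.0481) and Ube2f 0.02 (limma, adjusted p = 0.895). The Ube2m call was kept in 1 of the 6 runs without a library, with limma adjusted p of 0.0454 to 0.142.

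**Figure D2:**
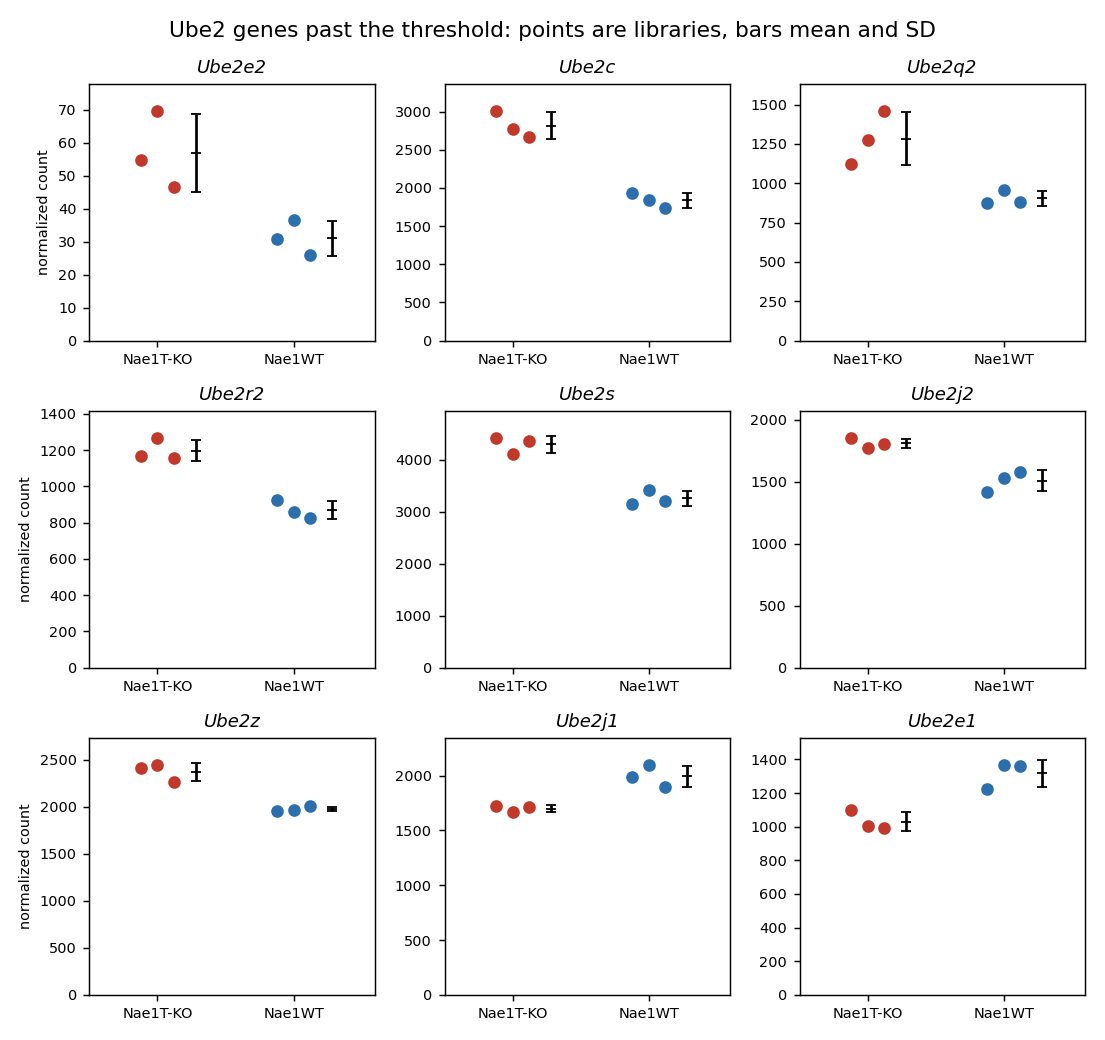
Normalized counts of the 9 Ube2 genes past the threshold, with the 3 Nae1T-KO libraries (red) left of the 3 Nae1WT libraries (blue) and bars for mean and SD (n = 3). The groups do not overlap in any of the 9 panels, and Ube2j1 and Ube2e1 are the genes lower in Nae1T-KO.

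The UBE2D and UBE2E enzymes are broad partners of many RING ligases. Of their 6 genes, Ube2e2 was higher, Ube2e1 was lower and 4 did not pass. Ube2e1 had 1097, 1003 and 991 normalized counts across Nae1T-KO libraries, against 1224, 1364 and 1362 in Nae1WT. It was lower in every Nae1T-KO library, with a log2 fold change of -0.35 ± 0.08 (SE, limma adjusted p = 0.0160). Nkiras1, an inhibitor of NF-kB whose exons on the other strand cover 16.1% of those of Ube2e1, had -0.07 (limma, adjusted p = 0.742). Ube2e2 had 54.8, 69.6 and 46.4 in Nae1T-KO, against 30.7, 36.6 and 25.9 in Nae1WT. It was the least abundant member, and its log2 fold change of 0.85 ± 0.25 (SE, limma adjusted p = 0.0474) was the largest and the least precise of the called genes, from 25 to 79 reads a library. The log2 difference of Ube2e2 was 1.22 in females and 0.46 in males. Ube2e1 and Ube2e2 are neighbours on chromosome 14, from 18282726 to 18332004 and from 18573563 to 18894284, with 242 kb and 0 protein-coding genes between them. The third member of the family, Ube2e3, had a log2 fold change of 0.12 (limma, adjusted p = 0.413).

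Both calls were sensitive to the choice of libraries. Ube2e1 did not pass when Nae1T-KO replicate 2 was left out (limma adjusted p = 0.0514), nor when Nae1WT replicate 2 (0.0715) or Nae1WT replicate 3 (0.0718) was, and its log2 fold change was then -0.33 each time. Over all its alternatives the adjusted p of Ube2e1 ran from 0.00315 to 0.123. Ube2e2 passed in 8 of 18 alternatives, with adjusted p between 0.0405 and 0.360. Of the omissions only that of Nae1T-KO replicate 3 kept its call, and the adjusted p without Nae1T-KO replicate 1 or 2 was 0.0931 and 0.165, and without Nae1WT replicate 1, 2 or 3 it was 0.0939, 0.0690 and 0.136.

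The UBE2D genes did not pass. Ube2d3, with the most normalized counts of any member, had 8903, 8834 and 9599 in Nae1T-KO, against 8806, 9463 and 9334 in Nae1WT. The libraries of the 2 groups were interleaved, and the gene did not pass (log2 fold change -0.01, 95% interval -0.16 to 0.13, limma adjusted p = 0.917). The sign of this small difference turned with scaling to total counts (0.0329). Ube2d2a had a log2 fold change of 0.08 and Ube2d1 0.27, with adjusted p of 0.468 and 0.223 in limma.

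UBE2N builds chains with K63 linkages, which carry signals in NF-kB activation and DNA repair, and needs the inactive E2 variants UBE2V1 or UBE2V2 as partners. Ube2n had 3021, 2965 and 3163 normalized counts across Nae1T-KO libraries, against 2884, 2924 and 3004 in Nae1WT, short of the threshold (log2 fold change 0.05, 95% interval -0.09 to 0.19, limma adjusted p = 0.616). Ube2v1 had 1307, 1250.5 and 998 in Nae1T-KO, against 1074, 1092 and 1144 in Nae1WT, and the spread within Nae1T-KO was wider than the difference (log2 fold change 0.09, limma adjusted p = 0.583). Ube2v2 had 370.2, 429 and 576 in Nae1T-KO, against 559.9, 595 and 558 in Nae1WT. Nae1T-KO replicate 3 stood within the Nae1WT range, while the other 2 Nae1T-KO libraries, both female, were lower. The log2 fold change of Ube2v2 was -0.34 (95% interval -0.66 to -0.02, limma adjusted p = 0.146), and it passed once Nae1T-KO replicate 3 was left out (-0.52, adjusted p = 0.0118, and 0.0118 to 0.448 over its alternatives). Exons of the readthrough gene Gm20431 cover 61.5% of those of Ube2v1, so reads of the 2 may have been shared. Of 16 tested ligases of this branch and of post-replication repair, 2 were higher and 2 lower, with a median of -0.08. The called genes were 25% of these, beside 12.7% of all genes tested. Rnf8, a ligase of the DNA damage response, had a log2 fold change of 0.63, and Peli1, a ligase of receptor signalling, 0.47. Rad18, the ligase that UBE2A and UBE2B serve at stalled replication forks, had -0.29. Leaving out each library in turn kept the Peli1 call in all 6 runs, and the Rnf8 and Rad18 calls in 1 run each.

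UBE2A and UBE2B are near copies that ubiquitylate histone H2B and the replication clamp PCNA. Ube2a had 677, 646 and 744 normalized counts across Nae1T-KO libraries, against 573, 625 and 580.1 in Nae1WT. The groups did not overlap, but the log2 fold change of 0.21 did not pass (95% interval 0.02 to 0.41, limma adjusted p = 0.131). Ube2a lies on the X chromosome from 36874295 to 36884222, and its log2 difference was 0.19 in females and 0.31 in males. Ube2b had 2090.3, 1973 and 2187 in Nae1T-KO, against 1951, 1995 and 1991 in Nae1WT, with overlap and a log2 fold change of 0.07 (limma, adjusted p = 0.511).

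UBE2T is the E2 enzyme of the Fanconi anaemia pathway, in which FANCL, its ligase, marks FANCD2 and FANCI for repair of DNA crosslinks. Ube2t had 377, 384 and 426 normalized counts across Nae1T-KO libraries, against 379, 421 and 365 in Nae1WT. The groups were interleaved, and the log2 fold change was 0.03 (95% interval -0.19 to 0.25, limma adjusted p = 0.891). Of 19 Fanconi genes 4 were lower and 15 did not pass, with a median log2 fold change of -0.13. The lower genes were 21.1% of the list, where 6.18% of all genes tested were lower. Fancl was among the lower genes at -0.40 (limma, adjusted p = 0.0486), with Brca2 at -0.59 and Fancb at -0.55. The Fancl call was kept in 2 of the 6 runs without a library, with limma adjusted p of 0.0439 to 0.143. Ube2w, whose product ubiquitylates the amino terminus of proteins, had -0.06 (limma, adjusted p = 0.699).

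The E2 enzymes of endoplasmic reticulum-associated degradation (ERAD) serve the removal of misfolded proteins from that organelle. Of their 3 genes, Ube2j2 was higher, Ube2j1 was lower and Ube2g2 did not pass. UBE2J1 and UBE2J2 are anchored in its membrane. Ube2j2 had 1851, 1773 and 1806 normalized counts across Nae1T-KO libraries, against 1419, 1535 and 1578 in Nae1WT, which gave a log2 fold change of 0.26 ± 0.07 (SE, limma adjusted p = 0.0326). Ube2j1 had 1719, 1667 and 1713 in Nae1T-KO, against 1989, 2093 and 1899.6 in Nae1WT, which gave a log2 fold change of -0.23 ± 0.07 (SE, limma adjusted p = 0.0480). Neither gene overlapped between the groups. The pseudogene Gm5801 matches 22.4% of the longest Ube2j2 transcript, at up to 99.2% identity, so reads may have been shared between them. UBE2G2 is the soluble E2 of the pathway, and Ube2g2 had -0.03 (95% interval -0.21 to 0.15, limma adjusted p = 0.831), which turned to 0.0142 with scaling to total counts. Both calls were near the threshold. Ube2j2 passed when Nae1T-KO replicate 3 was left out, and without the other libraries its adjusted p was 0.0900 (Nae1T-KO replicate 1), 0.0640 (Nae1T-KO replicate 2), 0.101 (Nae1WT replicate 1), 0.0922 (Nae1WT replicate 2) and 0.0684 (Nae1WT replicate 3), with 0.0164 to 0.312 over its alternatives. Ube2j1 did not pass when any of the 6 libraries was left out, with adjusted p between 0.0555 without Nae1T-KO replicate 3 and 0.188 without Nae1WT replicate 2, and 0.0383 to 0.357 over its alternatives. Of 15 ERAD ligases and cofactors 1 was higher, Vcp, the segregase that pulls proteins from the membrane, at 0.25, and 1 lower, Herpud1, at -0.34. These were 13.3% of the list, near the 12.7% of all genes tested. The Vcp call was lost whichever library was left out, with limma adjusted p of 0.0615 to 0.183. The Herpud1 call was kept in 1 of these 6 runs.

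UBE2L6 carries ISG15, the ubiquitin-like modifier induced by interferon. Ube2l6 had 254, 241 and 273 normalized counts across Nae1T-KO libraries, against 144, 205 and 224 in Nae1WT. All Nae1T-KO libraries were higher, but Nae1WT was spread widely and the log2 fold change of 0.45 did not pass (95% interval 0.08 to 0.81, limma adjusted p = 0.0997). Within sex the log2 difference was 0.14 in females and 0.67 in males. Of 14 tested genes of the ISG15 pathway and interferon response 5 were higher, with a median log2 fold change of 0.34. They were 35.7% of the list, beside 12.7% of all genes tested. Among them was Isg15 itself, with 152, 138 and 167 in Nae1T-KO, against 71.2, 67.9 and 73.9 in Nae1WT (log2 fold change 1.09, limma adjusted p = 0.00192). Oasl2 had 1.47, Irf7 1.34 and Ifit3 1.10. Leaving out each library in turn kept the Oasl2 and Irf7 calls in all 6 runs and the Ifit3 call in 2. The ISG15 E1 gene Uba7 had 0.35 and did not pass (limma, adjusted p = 0.181).

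Ube2q2 was the other member called whichever library was left out. UBE2Q2 belongs to a small family of E2 enzymes with a long amino-terminal extension. Ube2q2 had 1121, 1273 and 1458 normalized counts across Nae1T-KO libraries, against 874, 959 and 881 in Nae1WT, without overlap. The means were 1284 ± 169 in Nae1T-KO and 905 ± 46.9 in Nae1WT (SD, n = 3 each), for a log2 fold change of 0.50 ± 0.10 (SE, limma adjusted p = 0.00997). The gene lies on chromosome 9 from 55149369 to 55207529. The pseudogene Gm4895 matches 32.9% of its longest transcript but had at most 17.2 normalized counts in a library. Its relative Ube2q1 had a log2 fold change of 0.14 and did not pass (limma, adjusted p = 0.189), although the groups did not overlap.

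UBE2Z differs from other E2 enzymes in taking ubiquitin from the E1 enzyme UBA6 and not from UBA1. Ube2z had 2412, 2438 and 2259.9 normalized counts across Nae1T-KO libraries, against 1958, 1966 and 2005 in Nae1WT, without overlap, for a log2 fold change of 0.26 ± 0.06 (SE, limma adjusted p = 0.0252). The gene of its E1 partner, Uba6, had 1466, 1465 and 1281 in Nae1T-KO, against 1794, 1691 and 1609 in Nae1WT, which gave a log2 fold change of -0.28 (limma, adjusted p = 0.0461). The Uba6 call was lost whichever library was left out, with adjusted p of 0.0648 to 0.131, and in edgeR, with 0.0506, and its adjusted p ran from 0.0305 to 0.259 over its alternatives. Ube2z passed without Nae1T-KO replicate 3 but not without the other libraries, with adjusted p of 0.0724 (Nae1T-KO replicate 1), 0.0763 (Nae1T-KO replicate 2), 0.0660 (Nae1WT replicate 1), 0.0943 (Nae1WT replicate 2) and 0.0803 (Nae1WT replicate 3), and 0.0101 to 0.311 over its alternatives. Of 10 E1 genes Nae1 and Uba6 were lower and the other 8 did not pass. Of 14 genes for ubiquitin and ubiquitin-like modifiers 2 were higher and 1 lower, and the higher ones were Ubl5 at 0.35 and Isg15. The called genes were 20% of the E1 list, Nae1 included, and 21.4% of the modifier list, beside 12.7% of all genes tested.

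The remaining E2 genes did not pass the test. UBE2L3 charges the RBR ligases, among them the LUBAC complex that activates NF-kB, and Ube2l3 had 4596, 4291 and 4872 normalized counts across Nae1T-KO libraries, against 4649.9, 4947 and 4801 in Nae1WT (log2 fold change -0.07, 95% interval -0.22 to 0.09, limma adjusted p = 0.563). Exons of Ydjc on the other strand cover 28.6% of those of Ube2l3, and Ydjc had a log2 fold change of -0.16 (limma, adjusted p = 0.321). Of 10 tested RBR ligase genes Rnf31, the catalytic subunit of LUBAC, was the 1 called, at 0.30, which is 10% beside 12.7% of all genes tested. The Rnf31 call was kept in 2 of the 6 runs without a library. UBE2O is a large enzyme that acts as both E2 and E3 and clears ribosomal proteins from maturing red cells. Ube2o had 1309.7, 1356 and 1166 in Nae1T-KO, against 1019, 1047 and 1116 in Nae1WT, without overlap, and just missed the threshold (log2 fold change 0.27, 95% interval 0.09 to 0.44, limma adjusted p = 0.0552). It did pass once Nae1T-KO replicate 3 was left out (0.33, limma adjusted p = 0.0212), and also in DESeq2, with 0.0212 to 0.461 over its alternatives. Without that replicate all Nae1T-KO libraries were female, so group and sex were partly confounded. UBE2H serves the CTLH ligase, and Ube2h had 684, 800.2 and 729 in Nae1T-KO, against 774, 622 and 602 in Nae1WT (log2 fold change 0.15, limma adjusted p = 0.384). Both Ube2o and Ube2h were highest in Nae1T-KO replicate 2, the library with the most erythroid marker counts, 2052. Within each group Ube2o followed the order of these marker counts, while Ube2h did not. Nae1WT replicate 3, next with 645 erythroid counts, had the lowest Ube2h, 602, and Nae1WT replicate 1, with the fewest, 142, had 774. The part of erythroid cells in these values was not tested. Of 11 CTLH genes Rmnd5b was the 1 called, at -0.65, which is 9.09% beside the same 12.7%. Ube2k, whose product builds K48-linked chains, had 0.06 (limma, adjusted p = 0.645).

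**Figure D3:**
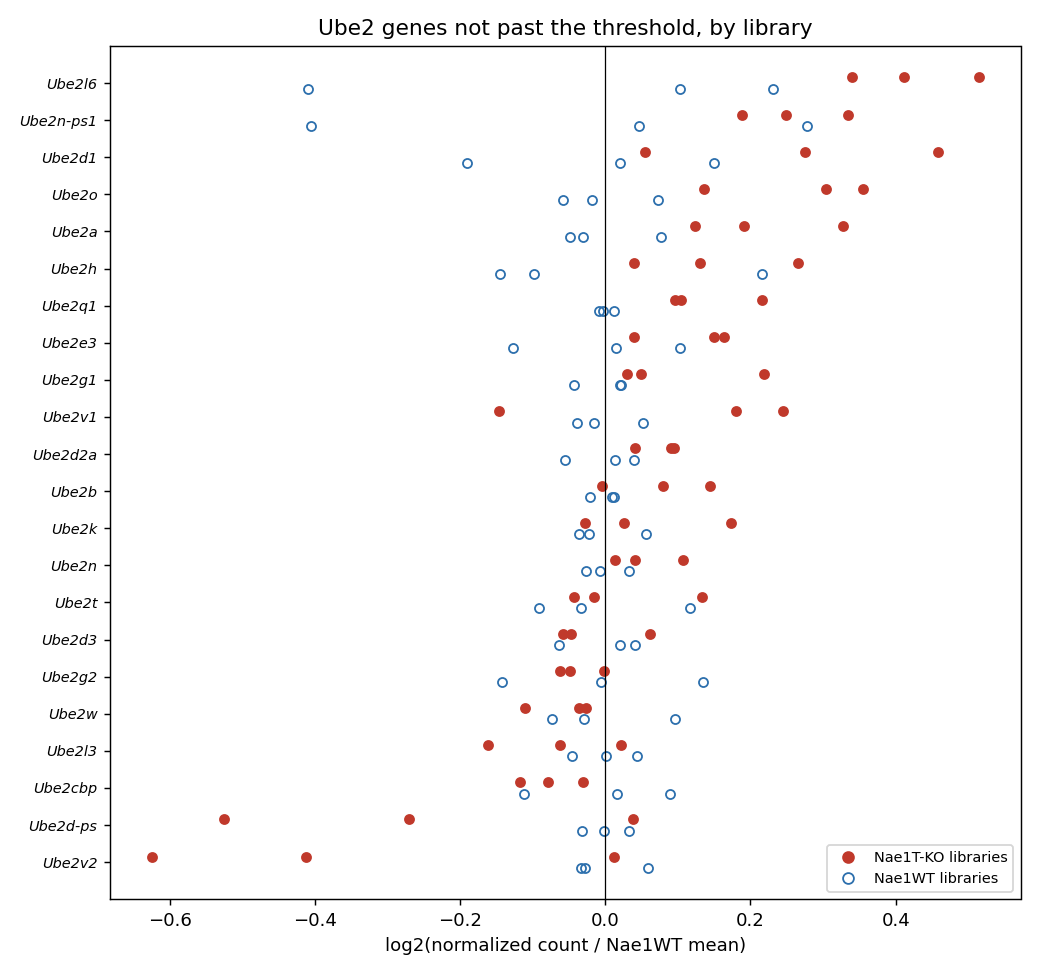
Each library of 22 of the 23 Ube2 genes that did not pass, as log2 of its normalized count over the Nae1WT mean of that gene, with Nae1T-KO as filled red points above Nae1WT as open blue points. Nae1T-KO and Nae1WT libraries separate without passing the test for Ube2l6, Ube2o, Ube2a, Ube2q1, Ube2g1 and Ube2d2a, and the Nae1T-KO libraries of Ube2v2 and Ube2d-ps are spread widest to the left.

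The members that do not encode E2 enzymes were also not called. Ube2cbp had a log2 fold change of -0.07, Ube2n-ps1 0.28 and Ube2d-ps -0.25, with limma adjusted p of 0.739, 0.341 and 0.332. The whole annotated transcript of Ube2n-ps1 matched Ube2n at 95% identity or more, so its counts may be reads of Ube2n. Over the 29 genes that encode E2 enzymes or variants, 7 were higher and 2 lower, which is 31.0% beside 12.7% of all genes tested, with a median log2 fold change of 0.12.

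Levels were set against each other per length, as normalized counts per kb of the median GENCODE basic transcript. Among the genes shown, Ube2d3 had the highest level, 3647 ± 169 in Nae1T-KO and 3683 ± 139 in Nae1WT (SD, n = 3 each). Ube2s followed with 3471 ± 134 in Nae1T-KO, which did not differ from Ube2d3 in Nae1T-KO beyond the spread, and 2636 ± 116 in Nae1WT, which lay below it. At the other end Ube2e2 had 53.5 ± 11.0 in Nae1T-KO and 29.2 ± 5.04 in Nae1WT. The order depends on the length used. With the union of all annotated exons, Ube2d3 was no longer among the 5 highest and Ube2b was highest, while Ube2s, Ube2b and Ube2l3 were among the 5 highest by both lengths and Ube2e2 was lowest by both.

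**Figure D4:**
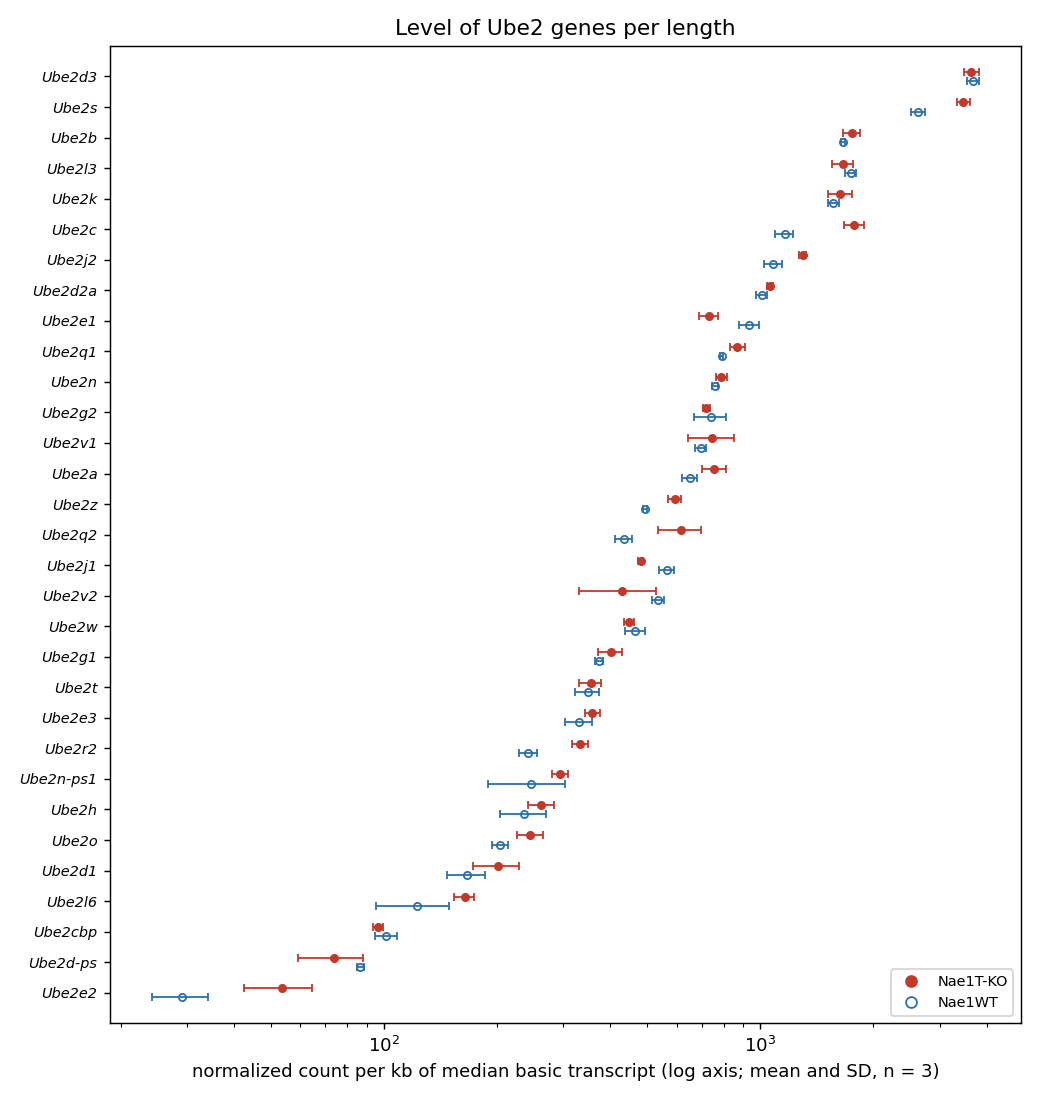
Level of 31 of the 32 Ube2 genes as normalized counts per kb of the median basic transcript (log axis), mean and SD over 3 Nae1T-KO libraries (filled red, upper) and 3 Nae1WT libraries (open blue, lower), ordered by the mean of both groups. Levels run from under 100 for Ube2e2 to above 3000 for Ube2d3, and Ube2c, Ube2s and Ube2q2 are among the genes whose groups stand apart.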

How the data were processed

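Gene expression was measured in 6 RNA-seq libraries made by capture on poly-T beads, per the labels' protocols. The authors deposited a signal of normalized counts, 1 column per library. Per the submitters' processing notes, bcl2fastq, HISAT2, DESeq2 1.42.0 and mm10 were used. The read counter and its use of strand are not stated in any source used here. In each library all values were multiples of 1 step (100% within 0.001 of a read), and the steps matched DESeq2 size factors, so reads were recovered for count tests. For Nae1T-KO replicate 3 the step is so close to 1 that the column alone shows this less surely.

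Genes with at least 10 normalized counts in at least 3 libraries (13819) were tested with limma 3.58.1 in R 4.3.3 on log2(normalized count + 1), with trend and robust variances, two-sided, for group alone; all 32 Ube2 genes passed this filter. On this scale the change of low genes is understated. Benjamini-Hochberg adjusted p under 0.05 over all tested genes was called. The fit was checked on simulated counts with known changes. Members, gene lists and alternatives were chosen with earlier results of these data known. Every member called, and others chosen by role, have values for each library. A member that did not pass is counted but not reported here, as is 1 gene of a list. Lists name up to 3 called genes with the largest change. Coordinates are RefSeq's for GRCm38.p6, and lengths and overlaps come from GENCODE M21 of the same build. Near-identical copies were sought with BLAST at 95% identity over 100 bases. Such matches were found for 15 members, 14 of them with a match in the deposited table, and only some are named. Alternatives tried were other scaling, pseudocounts, filters, tools (edgeR 4.0.16, DESeq2, limma-voom), replicate blocks, sex and leaving out each library. The other length for levels was added after seeing the data.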

Additional observations from a re-analysis of the deposited data

How the results depend on the processing

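No called Ube2 gene changed sign in any alternative run, and the number called was within 1.5 times of 9 under upper-quartile, total-count and TMM scaling, both pseudocounts, both filters, edgeR, DESeq2 and limma-voom. EdgeR and limma-voom each called 8 members and DESeq2 9, and 8 of those of each tool were among the 9. Leaving out a library gave 4 to 10 calls, 4 to 8 of them higher and 0 to 2 lower. With sex as a covariate 5 passed, 4 higher and 1 lower. The share of all genes called in these runs is not set beside these counts. The lower calls were also 1 with total-count scaling, no filter, edgeR or limma-voom, where Ube2j1 lost its call. The median log2 fold change of the members was 0.16 with total-count scaling, which moved the median of all genes by 0.05, and 0.08 to 0.15 without a library.

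The replicate numbers are not stated to pair libraries. Deviations of same-numbered libraries had correlations of -0.13, -0.18 and -0.27 over genes. No Nae1T-KO library correlated best with the Nae1WT library of its own number. Each same-numbered pair joined a female and a male library, and sex was not removed. These correlations therefore cannot show whether the libraries were paired. With a replicate block by title number 4 members passed, 4 higher and 0 lower. A block by library name, on 4 libraries, left 1 member, 1 higher and 0 lower. The share of all genes called with these blocks is not set beside these counts, so they are not read as particular to the members. Sign changed with total-count scaling for Ube2g2 (0.0142) and Ube2d3 (0.0329). Without a library Ube2g2 ranged from -0.102 to 0.0367, Ube2d3 from -0.0525 to 0.00746, Ube2k from -0.000248 to 0.10 and Ube2t from -0.0269 to 0.0871. The cause was not tested. Ube2e2 had the fewest reads of the members, 25 to 79 a library, and a 95% interval of 0.30 to 1.39. Of 24 called genes with the largest changes in the pathway lists, 9 were called whichever library was left out: Nae1, Isg15, Irf7, Oasl2, Peli1, Anapc10, Brca2, Fancb and Rmnd5b.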
